A study of Homo sapiens with 9 samples.

Results

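The genes described here mark neuron types that a hindbrain culture could make in place of serotonin neurons, namely catecholamine neurons and motor neurons. They are 9 named genes of the 34961 in the table, chosen by symbol, and each symbol stood for 1 gene identifier. PHOX2A, TH and DBH belong to the catecholamine lineage, ISL1, ISL2 and MNX1 are transcription factors of motor neurons, and CHAT, SLC18A3 and SLC5A7 serve acetylcholine transmission. RNA sequencing was done on WA09 cells, an established human embryonic stem cell line, and all groups carried the TPH2-EGFP knock-in and the label of serotonin neuron induction. Day0 holds embryonic stem cells, Day21 cells labelled neural progenitors and Day42 cells labelled TPH2+ serotonin neurons, with 3 libraries each. The sample titles call the libraries of each day biological replicates. The labels give no sort or gate for Day42 and are silent on whether these replicates came from separate differentiations. The p-values here reflect the variation among these libraries, which may be technical.

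As background, catecholamine neurons use tyrosine hydroxylase (TH) to turn tyrosine into DOPA, the decarboxylase DDC to make dopamine and, in noradrenaline neurons, dopamine beta-hydroxylase (DBH) to make noradrenaline. The paired-like homeodomain factor PHOX2A takes part in specifying noradrenaline neurons and also visceral motor neurons of the hindbrain, which arise from the same ventral progenitors as serotonin neurons. Motor neurons express LIM homeodomain factors of the ISL family and, in the somatic class, MNX1. They make acetylcholine with choline acetyltransferase (CHAT), load it into vesicles with SLC18A3 and take up choline with SLC5A7.

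Total counts lay between 58526466 and 69658328 per library. Low counts piled up at multiples of 4, so a count of 0 was taken to allow up to 12 counts, and levels at or under that limit are not read as expression; the limit covers counting error only. More than 12 counts were found for 49.9 to 52.4% of genes on Day0 and 51.9 to 52.9% on Day21, while Day42 had 39.9% in replicate 1, 43.0% in replicate 2 and 23.4% in replicate 3. Day42 replicate 3 therefore stood apart. For the genes named at the start, results that rest on it are also given without it. No fit without it is given for any other single gene. The labelled cell types were checked on marker genes. The summed level of 6 stem cell genes was 1373 to 2157 CPM on Day0, 18.5 to 35.3 on Day21 and at most 0.142 on Day42, and that of 6 serotonin neuron genes was at most 3.56 CPM on the earlier days and 732 to 962 on Day42. In Day42, TPH2, FEV and GATA3 were high in all 3 libraries, while SLC6A4, the serotonin transporter, and HTR1A were at 0. CPM are counts scaled to library size by TMM factors, and FPKM are the authors' length-scaled values, used here wherever 2 genes are compared.

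Promoter sequences are shown for DBH and SLC18A3, because these members had counts in all Day21 libraries and in no library of the other days. The windows run from 250 bases before to 50 after the annotated start, 5′ to 3′ on the gene's plus strand, from RefSeq on GRCh38.p14. They cover chr9:133636113-133636412 for DBH and chr10:49610060-49610359 for SLC18A3. Capitals mark TAAT on either strand, the core that homeodomain proteins such as PHOX2A and ISL factors recognise.
DBH: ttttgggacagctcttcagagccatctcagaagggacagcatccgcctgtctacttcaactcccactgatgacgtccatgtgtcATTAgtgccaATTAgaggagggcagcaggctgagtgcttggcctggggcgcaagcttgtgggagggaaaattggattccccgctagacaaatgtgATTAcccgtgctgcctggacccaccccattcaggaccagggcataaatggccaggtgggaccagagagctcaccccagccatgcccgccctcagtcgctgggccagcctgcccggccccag
SLC18A3: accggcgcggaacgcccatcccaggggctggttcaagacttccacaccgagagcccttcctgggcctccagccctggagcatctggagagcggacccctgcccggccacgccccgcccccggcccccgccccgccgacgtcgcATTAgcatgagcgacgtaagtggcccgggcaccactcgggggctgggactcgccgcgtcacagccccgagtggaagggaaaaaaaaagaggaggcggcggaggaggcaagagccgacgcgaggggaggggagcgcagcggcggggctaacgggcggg
The core occurred 3 times in the DBH window and 1 time in the SLC18A3 window, and 50.2% of 35116 windows of this length held it. An E-box, CANNTG, was found 3 times in the DBH window and 1 time in that of SLC18A3, against 68.7% of windows with at least 1. A full cAMP response element, TGACGTCA, was in neither, and 1.85% of windows held it. Of the 9 genes, 8 had a window in the table, and TH had none. These matches are letters in a sequence and were not tested as binding sites.

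At most 5 of the 9 genes were above 12 counts in any library. On Day0 these were 1, 3 and 1 of them in replicates 1, 2 and 3, where 49.9 to 52.4% of all genes were above 12 counts. On Day21 they were 5, 5 and 4, where 51.9 to 52.9% of all genes were. On Day42 they were 3, 2 and 0, where 39.9, 43.0 and 23.4% of all genes were. PHOX2A, MNX1 and CHAT stayed at or under 12 counts in all 9 libraries. Enough counts for the test were found for 6 genes, TH, DBH, ISL1, ISL2, SLC18A3 and SLC5A7, which joined the 20156 genes fitted. DBH and SLC18A3 passed that filter through their Day21 counts alone. The highest value of any of the 9 genes was the 10.2 FPKM of TH in Day42 replicate 2, and every other gene but ISL2 stayed under 1 FPKM.

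**Figure D1:**
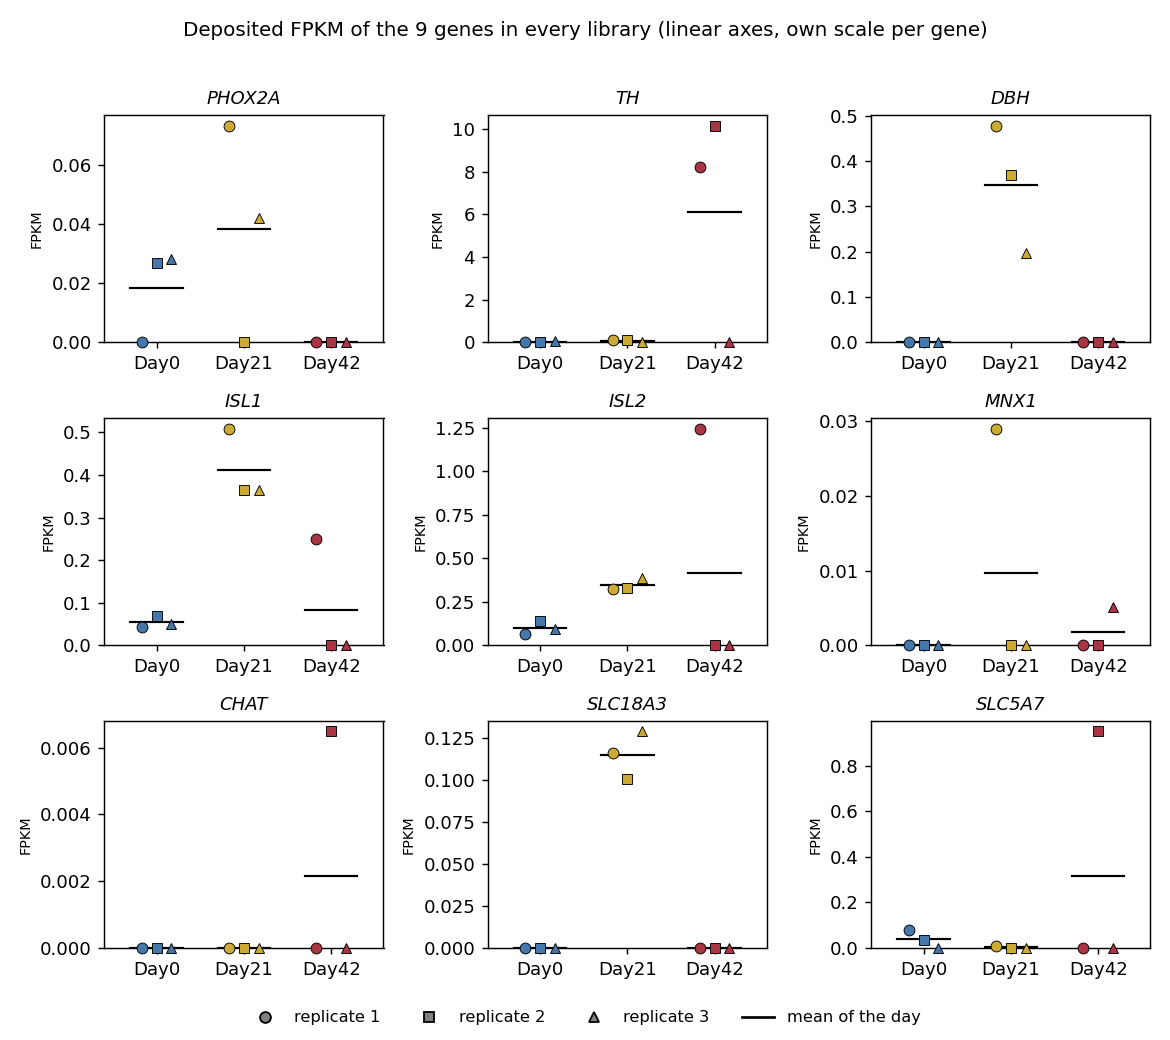
Deposited FPKM of each of the 9 genes (vertical axes, linear, scaled per gene) against day, with symbols for the 3 replicates and a line at the mean of each day. TH reaches 8.20 and 10.2 FPKM in 2 Day42 libraries and is at 0 in the third library, DBH and SLC18A3 are above 0 on Day21 alone, and ISL2 and SLC5A7 are highest in a single Day42 library.

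PHOX2A, a homeodomain regulator of noradrenaline neurons (ENSG00000165462, chromosome 11, 72239077 to 72244176, minus strand, GRCh38), was near or under detection on every day. Day0 libraries held 0, 4 and 4 reads, Day21 libraries 12, 0 and 7, and Day42 libraries 0, 0 and 0. No library exceeded the limit of 12 counts, so its order over days cannot be read, and it was not tested. One end of the gene overlaps the end of INPPL1 on the other strand, and no source used here states a strand setting.

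TH, the rate-limiting enzyme of catecholamine synthesis (ENSG00000180176, chromosome 11, 2163929 to 2171805, minus strand), had the highest counts of the 9 genes, in 2 libraries of Day42. In replicates 1, 2 and 3, Day0 had raw counts of 3, 0 and 10, Day21 had 31, 35 and 0, and Day42 had 1818, 2326 and 0. Replicates 1 and 2 of Day42 lay far above every earlier library, while replicate 3 had no count in a total of 69658328, so the days overlapped. The Day42 mean was 16.9 ± 14.8 CPM, against 0.363 ± 0.328 CPM for Day21 and 0.0768 ± 0.0820 CPM for Day0 (SD, n = 3 each), the last of which is under the mean limit of 0.227 CPM. The Day42 mean without replicate 3 was 25.4 CPM. On the log2 scale Day42 exceeded Day21 by 5.53 ± 2.67 (SE, edgeR adjusted p = 0.174). It exceeded Day0 by 7.74 ± 2.97 (edgeR adjusted p = 0.0813), and neither difference passed. Without Day42 replicate 3 both passed, at 6.12 for Day21 (edgeR adjusted p = 0.0191) and 8.30 for Day0 (edgeR adjusted p = 0.00675). Over all alternatives the adjusted p ran from 0.0191 to 0.334 and from 0.00466 to 0.606. Day21 and Day0 did not differ beyond the spread (2.20 ± 2.35, edgeR adjusted p = 0.818; range 0.357 to 1).

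Within the Day42 libraries, TH was a middle-to-high gene where it was found. It ranked 3815 of 16077 genes with an FPKM above 0 in replicate 1 and 3368 of 17101 in replicate 2. Its FPKM was 36.9% and 59.1% of that of TPH2, the serotonin counterpart of TH, and 5.54% and 9.76% of that of DDC, which both pathways share. In replicate 3, TPH2 stood at 15.2 FPKM and DDC at 111 FPKM, close to the other libraries (17.2 and 22.2 for TPH2, 104 and 148 for DDC), with TH at 0. Genes with at least 1818 counts in both replicates 1 and 2 numbered 4236, and 296 of them, or 6.99%, were at 0 in replicate 3. That set has no upper bound and TH lies at its lower end, so the share is not matched to the level of TH. The vesicular monoamine transporter SLC18A2 had FPKM of 26.4, 31.7 and 0.201 in replicates 1, 2 and 3. SLC18A1, the transporter form of chromaffin cells, ran the other way, at 0, 1.19 and 19.0 FPKM. Whether the loss of detected genes in replicate 3 has a part in the absence of TH was not tested.

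**Figure D2:**
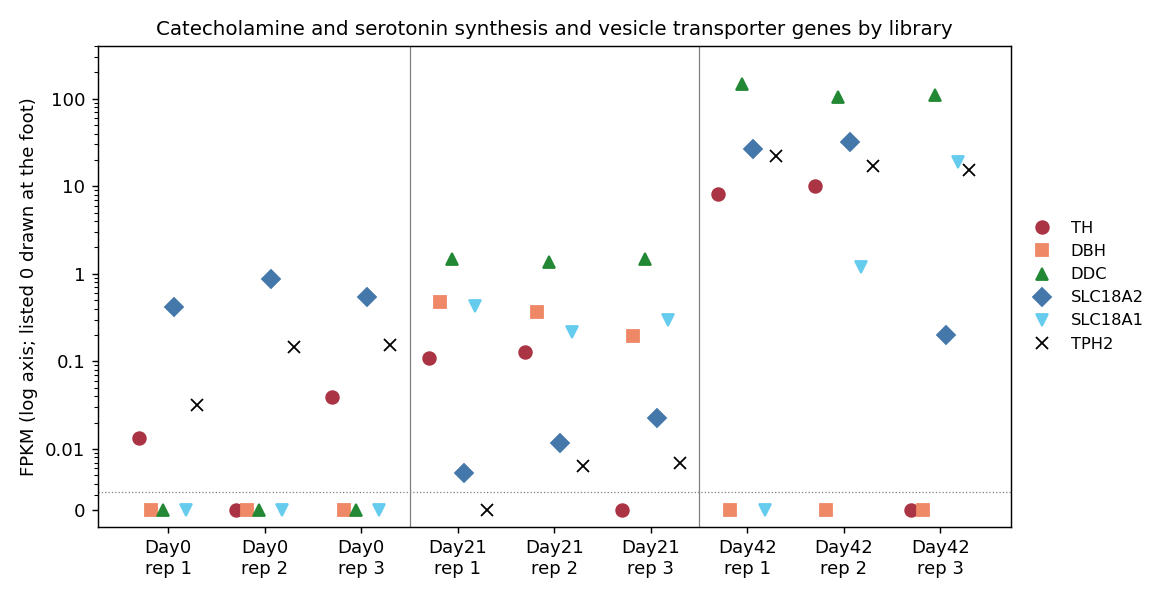
FPKM (log axis, values of 0 drawn at the foot) of TH, DBH, DDC, SLC18A2, SLC18A1 and TPH2 in the 9 libraries. DDC and TPH2 are high in all 3 Day42 libraries, TH and SLC18A2 are high in replicates 1 and 2, SLC18A1 is high in replicate 3 at 19.0 FPKM, and DBH is above 0 in the Day21 libraries alone.

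DBH, which converts dopamine to noradrenaline (ENSG00000123454, chromosome 9, 133636363 to 133659329, plus strand), was found on Day21 and on no other day. The Day21 libraries had raw counts of 112, 84 and 44, and the 6 libraries of Day0 and Day42 had 0. All 3 Day21 libraries lay above all 6 others. Its Day21 level was 1.32 ± 0.455 CPM, at least 5.80-fold above the limit of Day0 and at least 9.04-fold above that of Day42. Day42 was lower than Day21 for DBH (edgeR adjusted p = 0.0111), while the Day21 to Day0 difference missed the threshold (edgeR adjusted p = 0.0514). The fall did not pass without Day21 replicate 2 (edgeR adjusted p = 0.0527), and over alternatives its adjusted p ran from 2.22e-07 to 0.127. The difference from Day0 passed without replicate 1, 2 or 3 of Day42 (edgeR adjusted p = 0.0456, 0.0407 and 0.0182), with a range of 4.84e-06 to 0.380. DBH and TH were above 12 counts together in Day21 replicates 1 and 2 and in no other library. On Day21 DBH was the higher per length, at 0.478, 0.368 and 0.197 FPKM against 0.110, 0.129 and 0 for TH. The antisense gene DBH-AS1 lies within DBH on the other strand and had 6, 0 and 15 counts on Day21, and without a stated strand setting reads of the pair cannot be told apart.

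Other genes of catecholamine handling took different directions, as counted over a list of 15 with 14 tested. Between Day21 and Day42, 5 of 14 rose and 2 of 14 fell, where 6.52% of all genes rose and 19.7% fell, with a median log2 difference of 0.81 against −0.54 over all genes. DDC rose by 5.74 ± 0.32 (edgeR adjusted p = 0.00029), MAOB, a monoamine oxidase, by 10.42 ± 0.50 (edgeR adjusted p = 6.14e-05) and SLC18A2 by 9.71 ± 1.82 (edgeR adjusted p = 0.00565). GCH1 and PTS, which make the cofactor of TH and TPH2, were the others that rose, and MAOA and SLC6A3, the dopamine transporter, were those called lower. The Day21 mean of SLC6A3, 0.162 CPM, was under the mean limit of 0.203 CPM, so its fall is not read. Serotonin neurons also use DDC, SLC18A2, GCH1, PTS and the oxidases, so these genes do not separate the fates. SLC18A1 had 0, 334 and 5820 counts on Day42 and exceeded its Day0 level (edgeR adjusted p = 0.0350). SLC6A2, the noradrenaline transporter, had at most 19 counts in any library, and SLC6A3 was at 0 in all Day42 libraries after 16, 4 and 10 counts on Day21. PNMT, which makes adrenaline, had 468 to 540 counts on Day0, 93 to 116 on Day21 and 0, 167 and 0 on Day42, and no comparison of it passed. Of 8 chromaffin and secretory genes, 7 were tested and 4 rose and 2 fell from Day21 to Day42 (median 2.62), among them the granule genes CHGB and SCG2, which rose, and NPY, which fell. Against Day0, 1 of 14 catecholamine genes was higher and 0 lower on Day21 (median −0.87, all genes 0.03), where 1.32% of all genes were higher and 1.18% lower. On Day42, 5 of 14 were higher and 3 lower (median −0.05, all genes −0.57), where 8.82% of all genes were higher and 23.4% lower.

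Other noradrenergic and sympathetic regulators, of which part is reported here, had few counts on Day42 outside single libraries. TFAP2B, a factor of sympathetic neurons and neural crest, had 472, 277 and 298 counts on Day21, none on Day0, and 0, 580 and 0 on Day42, so its Day42 value rests on replicate 2. It was not called in any comparison (edgeR adjusted p = 0.205 for Day21 against Day0, 0.774 for Day42 against Day21 and 0.0935 for Day42 against Day0). INSM1, a zinc finger factor of neuroendocrine cells, stood at 236, 89 and 70 counts in the Day21 libraries, after 4, 8 and 20 in those of Day0, and at 0, 126 and 0 in those of Day42, and was not called either. HAND1, TFAP2A, TLX2 and TLX3 were too low for the test, with at most 18 counts in any library.

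Midbrain dopamine factors, which accompany TH in dopamine neurons, differed among themselves on Day42. Of 10 genes, 6 were tested. EN1, a boundary factor shared with serotonin progenitors, rose from 0 on Day0 to 14.4 ± 1.56 CPM on Day21 (edgeR adjusted p = 0.00358) and stood at 29.6 ± 17.6 CPM on Day42. OTX2, the forebrain and midbrain factor, fell in each step (edgeR adjusted p = 0.00213 and 0.000644) to 0 in all Day42 libraries. PITX3 and LMX1A, which mark midbrain dopamine neurons and their progenitors, were at 0 in all Day42 libraries, and NR4A2, a factor of dopamine neurons, had 40, 4 and 4 counts there. Other factors of the list were present in part of the Day42 libraries, with 120, 178 and 0 counts for LMX1B, which serotonin neurons also use. FOXA1 had 99, 40 and 0 counts and FOXA2, a floor plate factor, 0, 291 and 0, and these 3 genes were called in no comparison. The median log2 difference of the 6 genes was 4.41 from Day0 to Day21 (3.98 with genes at 0 set to their limit), −1.59 from Day21 to Day42 and 3.67 from Day0 to Day42.

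ISL1, a LIM homeodomain factor of motor, sympathetic and sensory neurons (ENSG00000016082, chromosome 5, 51383448 to 51394730, plus strand), was highest on Day21. From 9, 16 and 12 raw counts in the Day0 libraries it stood at 123, 85 and 83 in those of Day21 and at 49, 0 and 0 in those of Day42. The Day21 libraries lay above all others, and Day42 counts came from replicate 1 alone. The Day21 level was 1.61 ± 0.152 CPM, against 0.229 ± 0.0531 CPM for Day0, about at the limit, and 0.209 ± 0.362 CPM for Day42. The Day21 to Day0 difference of 2.80 ± 1.87 did not pass (edgeR adjusted p = 0.573), but it did with only those days in the model (edgeR adjusted p = 0.00651), and its adjusted p ran from 0.00229 to 0.842 over alternatives. The Day42 to Day21 difference of −2.94 ± 1.88 did not pass either (edgeR adjusted p = 0.314; range 0.00321 to 0.492). Without Day42 replicate 1, where the 2 libraries left were at 0, ISL1 was called lower on Day42 than on Day21 (edgeR adjusted p = 0.00321) and than on Day0 (edgeR adjusted p = 0.00566). As the Day0 level was about at the limit, the call against Day0 is not read as a fall. With all libraries, Day42 and Day0 did not differ beyond the spread (−0.13 ± 1.76, edgeR adjusted p = 0.976; range 0.00566 to 1).

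ISL2, the paralog of ISL1 in motor neurons (ENSG00000159556, chromosome 15, 76336773 to 76342475, plus strand), had its highest value in a single Day42 library. Day0 gave 10, 24 and 17 raw counts, Day21 gave 60, 60 and 68, and Day42 gave 189, 0 and 0. Day21 libraries agreed within a narrow range above Day0, and Day42 spanned both ends of the scale. Mean levels were 0.312 ± 0.110, 1.07 ± 0.181 and 0.807 ± 1.40 CPM. No comparison passed, with differences of 1.76 ± 2.06 between Day21 and Day0 (edgeR adjusted p = 0.849; range 0.0397 to 1), −0.40 ± 1.99 between Day42 and Day21 (edgeR adjusted p = 0.931) and 1.36 ± 2.03 between Day42 and Day0 (edgeR adjusted p = 0.676). Without Day42 replicate 1, ISL2 was called lower on Day42 than on both Day21 (edgeR adjusted p = 0.00421) and Day0 (edgeR adjusted p = 0.00581), with adjusted p ranging over alternatives from 0.00421 to 0.987 and from 0.00581 to 0.844. The direction against Day0 turned without that library, to −7.31, and also with voom, to −0.93. ISL1 and ISL2 were above 0 in the same 7 libraries. Per length they were close on Day21, with means of 0.413 ± 0.0834 FPKM for ISL1 and 0.346 ± 0.0356 FPKM for ISL2, while in Day42 replicate 1 they stood at 0.249 and 1.24 FPKM. A gene model on the other strand overlaps ISL2.

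MNX1, also called HB9, the homeodomain factor of somatic motor neurons (ENSG00000130675, chromosome 7, 156994051 to 157010663, minus strand), was not detectable at this depth. Its only counts were 11 in Day21 replicate 1 and 2 in Day42 replicate 3, both under the limit, and it was not tested. An antisense gene model overlaps it.

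Progenitor and motor neuron factors other than the 9 genes were counted on a list of 16, with 15 in the table and 12 tested. From Day21 to Day42 edgeR called 5 of 12 lower and 0 higher, where it called 19.7% of all genes lower and 6.52% higher, with 6 at an unadjusted p under 0.05 and 6 called by DESeq2 (median −2.76, or −1.85 with genes at 0 set to their limit, all genes −0.54). Those were NKX6-1, a ventral progenitor factor (edgeR adjusted p = 0.00819), ONECUT1 (edgeR adjusted p = 0.00301), NKX2-8, NEUROG2 and ALDH1A2, and all 5 were at 0 in the Day42 libraries after counts in every Day21 library. NKX6-1, NKX2-8 and NEUROG2 were at 0 on Day0 too. Their Day21 counts alone brought them into the 12, so the 5 of 12 is not read as an excess over all genes. NKX2-8, a homeodomain factor of the ventral hindbrain, had 41, 66 and 31 counts on Day21 and 0 elsewhere (edgeR adjusted p = 0.0122 for the fall). NKX6-1 rose from 0 on Day0 to 4.65 ± 0.827 CPM on Day21 (edgeR adjusted p = 0.0485), the 1 gene of the list called in that step (median 3.90, or 1.81 with genes at 0 set to their limit, all genes 0.03). OLIG2, the somatic motor neuron progenitor factor, was at 0 in all Day21 libraries and had 12, 152 and 0 counts on Day42, while NKX2-2, which marks the progenitors of visceral motor and serotonin neurons, had 662, 510 and 480 on Day21. ONECUT2 stood at 1360, 1961 and 0 counts on Day42 and LHX4 at 336, 112 and 0. Between Day42 and Day0, edgeR called 1 of 12 higher and 2 lower (median 0.27), where it called 8.82% of all genes higher and 23.4% lower. The higher gene was NKX2-2 (edgeR adjusted p = 0.0343), at 0 on Day0 and at 196, 723 and 0 counts on Day42. The days thus overlapped through replicate 3, and no fit of NKX2-2 without it is given here. ONECUT1 was lower, after 25, 11 and 24 counts on Day0. ALDH1A2 was also called lower, but its Day0 counts of 8, 0 and 10 were under the limit, so that fall is not read.

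SLC18A3, the vesicular acetylcholine transporter (ENSG00000187714, chromosome 10, 49610310 to 49612720, plus strand), shared the Day21 pattern of DBH. Its Day21 libraries had raw counts of 24, 21 and 25, and all libraries of Day0 and Day42 had 0. The 3 Day21 libraries were close to each other, at 0.395 ± 0.0527 CPM, at least 1.73-fold above the limit of Day0 and at least 2.71-fold above that of Day42. The fall of SLC18A3 from Day21 to Day42 passed (edgeR adjusted p = 0.0108), while the difference between Day21 and Day0 missed the threshold (edgeR adjusted p = 0.0514). The fall did not pass without replicate 1, 2 or 3 of Day21 (edgeR adjusted p = 0.0542, 0.0604 and 0.0583), and its adjusted p ran from 0.00244 to 0.142. The difference from Day0 passed without Day42 replicate 3 (edgeR adjusted p = 0.0381; range 7.33e-05 to 0.381). Of 2287 genes with Day21 counts between 21 and 123 in every library, the range that DBH, ISL1 and SLC18A3 span, 28.3% were at 0 in all Day42 libraries, 5.99% were at 0 in all Day0 libraries and 3.37%, or 77 genes, were at 0 on both days. Absence on Day42 was thus common at such counts, and absence on both days was less so. In these bulk libraries, fewer cells of a type and less RNA per cell cannot be told apart.

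CHAT, which makes acetylcholine (ENSG00000070748, chromosome 10, 49609095 to 49665104, plus strand), had 4 counts in Day42 replicate 2 and 0 in the other 8 libraries. It was not tested, and its absence is not shown beyond the limit of 12 counts per library. SLC18A3 lies inside CHAT on the same strand, from 1215 to 3625 bases after the start of CHAT. None of the 12 CHAT transcripts of GENCODE release 29 has an exon in that stretch (0 of 12). No source used here says how reads of the shared stretch were counted, so the split between the genes is uncertain.

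**Figure D3:**
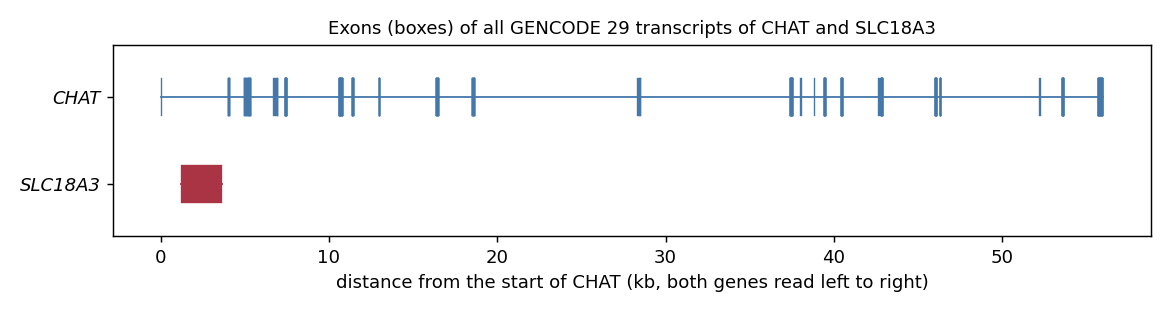
Exons of all annotated transcripts (boxes, to scale) of CHAT and SLC18A3 against the distance in kb from the start of CHAT, with a line for each gene's span. The single exon of SLC18A3 falls in an intron of CHAT, from 1215 to 3625 bases after its start.

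SLC5A7, the high-affinity choline transporter (ENSG00000115665, chromosome 2, 107986523 to 108013994, plus strand), had no stable day. Day0 libraries had 29, 16 and 0 raw counts, those of Day21 had 5, 0 and 0, and those of Day42 had 0, 354 and 0. Its Day42 mean of 1.39 ± 2.41 CPM is the value of replicate 2 alone, at 4.17 CPM, and the days overlapped. No comparison passed. The difference of Day42 was 5.69 ± 3.17 to Day21 (edgeR adjusted p = 0.241) and 2.15 ± 2.67 to Day0 (edgeR adjusted p = 0.609), and without Day42 replicate 2 these were −3.77 and −7.28. That of Day21 to Day0 was −3.54 ± 2.90 (edgeR adjusted p = 0.699; range 0.0430 to 0.972). SLC18A3 and SLC5A7 were above 12 counts together in no library, and CHAT was above 12 counts in none. The Day42 library with SLC5A7 had 0 counts of SLC18A3, ISL1 and ISL2, and the Day42 library with ISL1 and ISL2 had 0 counts of SLC5A7.

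Acetylcholine breakdown and receptor genes, a list of 18 with 15 tested, were seldom called. Called by edgeR were 0 of 15 from Day0 to Day21, with 2 at an unadjusted p under 0.05 and 2 called by DESeq2. From Day21 to Day42 all these counts were 0 of 15, and 1 of 15 was lower on Day42 than on Day0, with 1 at an unadjusted p under 0.05 and 3 called by DESeq2 (medians 0.50, −0.08 and −0.19, against 0.03, −0.54 and −0.57 over all genes). Of all genes, edgeR called 1.32% higher and 1.18% lower from Day0 to Day21. The shares were 6.52% and 19.7% from Day21 to Day42, and 8.82% and 23.4% between Day42 and Day0. The gene that edgeR called was CHRM1, a muscarinic receptor with 35, 31 and 36 counts on Day0 and 0 later (edgeR adjusted p = 0.00864). ACHE, which breaks down acetylcholine, was present in all 3 Day42 libraries, at 1.76, 5.53 and 1.51 FPKM, against 0.704, 0.357 and 0.0233 on Day21. BCHE, the related butyrylcholinesterase, stood at 18.2, 22.2 and 30.4 FPKM on Day21 and at 1.47, 9.28 and 0 on Day42 (edgeR adjusted p = 0.2). The nicotinic subunit CHRNB2 followed the libraries of TH, at 1.84, 3.06 and 0 FPKM on Day42.

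**Figure D4:**
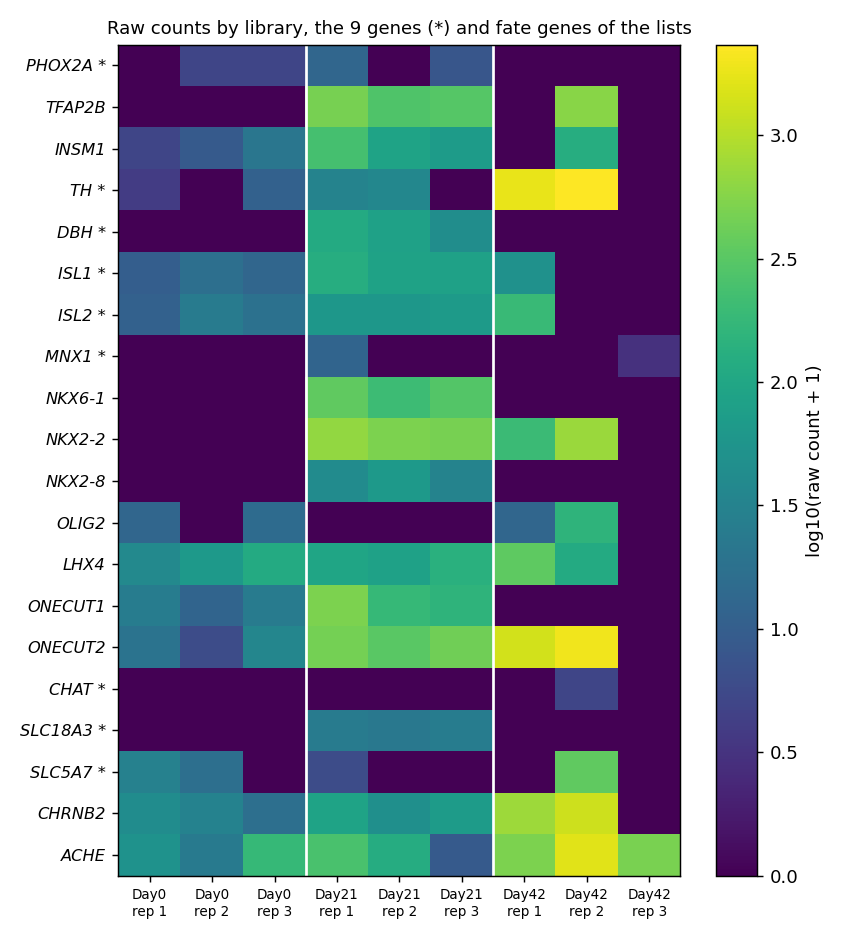
Colour gives log10(raw count + 1) for the 9 genes (starred) and related genes of the lists (rows) in the 9 libraries (columns). DBH, NKX6-1, NKX2-8 and SLC18A3 have counts on Day21 alone, and of the genes drawn ACHE and MNX1 are those with any count in Day42 replicate 3, at 482 and 2.

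Counted over the comparisons, few of the 6 tested genes were called. From Day0 to Day21, edgeR called 0 higher and 0 lower, where 1.32% and 1.18% of all genes were called higher and lower; DBH and SLC18A3 had an unadjusted p under 0.05, and DESeq2 called these 2. DBH, ISL1, ISL2 and SLC18A3 had Day21 libraries that all lay above Day0, and 46.9% of all genes did not overlap in either direction. From Day21 to Day42, DBH and SLC18A3 were called lower and 0 higher, against 19.7% of all genes lower and 6.52% higher, and with ISL1 3 of 6 did not overlap, against 45.8%. DBH and SLC18A3 passed the filter through their Day21 counts alone, so their differences from the other days are not read as an excess over all genes. Between Day42 and Day0, edgeR called 0 higher and 0 lower, against 8.82% and 23.4%, TH was the 1 gene with an unadjusted p under 0.05 and the 1 that DESeq2 called, and 0 of 6 were without overlap, against 45.5%. The comparisons share libraries, so their values are not independent of each other.

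**Figure D5:**
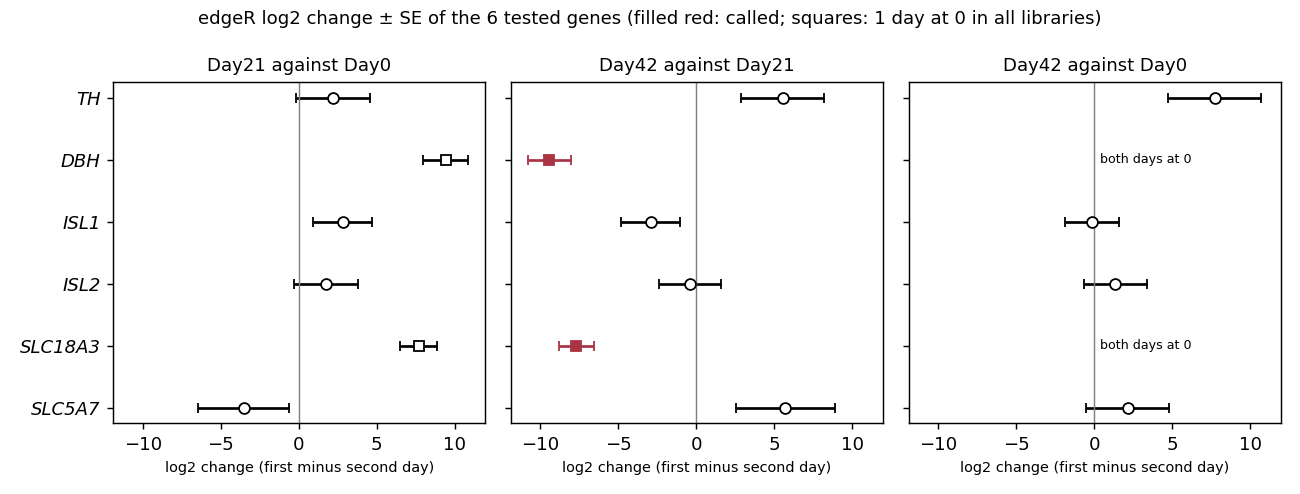
Points give the edgeR log2 change (horizontal axis, first day minus second) with its SE for the 6 tested genes in the 3 comparisons, filled red where called, and squares where 1 of the days is at 0 in all libraries, whose fitted size depends on the prior count. DBH and SLC18A3 are called from Day21 to Day42, and TH has its largest difference, 7.74 ± 2.97, between Day42 and Day0.

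Markers of other cell types moved with the same days. Of 8 mesenchyme and vessel genes, 7 to 8 were above 12 counts on Day21, and their summed level was 15.0 to 25.8 CPM on Day0, 723 to 777 on Day21 and 131 to 162 on Day42. Of 13 peripheral sensory and placode genes, which share ISL1, 8 to 10 were above 12 counts on Day21, with sums of 4.52 to 5.38, 43.0 to 50.4 and 1.99 to 56.9 CPM. POU4F1, the defining factor of sensory neurons, reached at most 14 counts, and POU4F1, POU4F2, DRGX and PRDM12 were too low for the test. Of 9 genes tested from Day21 to Day42, 1 rose and 3 fell, where 6.52% of all genes rose and 19.7% fell. The neurotrophin receptor NTRK3 rose (edgeR adjusted p = 0.04002; 628, 3450 and 74 counts on Day42), and the placode gene EYA1 and the filament gene PRPH were among those that fell (edgeR adjusted p = 0.0154 and 0.00325). NTRK2, a neurotrophin receptor, rose from Day0 to Day21 (edgeR adjusted p = 0.0334). Its Day21 mean of 38.2 CPM made up most of the Day21 sum of the sensory and placode list, so that sum mainly gives the level of NTRK2. The 8 glial genes summed to 17.9 to 22.5, 75.2 to 81.9 and 8.38 to 13.9 CPM, with GFAP, AQP4 and OLIG1 at 0 on Day42. The part of these cells in the levels of the 9 genes was not tested.

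The genes most alike in pattern were found by the Pearson correlation of log2 CPM with each tested gene over the 9 libraries, among genes with a mean of at least 5 FPKM on some day. The points share 3 days and differing depth, so these are descriptions. TH was most like FBXO34, an F-box gene, and PAK2, a kinase (r = 0.934 for both), which also stood higher in replicates 1 and 2 of Day42 than in replicate 3, as in FBXO34 with 18.7 FPKM in replicate 1 and 1.54 FPKM in replicate 3. DBH was most like HES5, a Notch target (r = 0.996), and the host gene MIR217HG (r = 0.995), both at 0 on Day0 and Day42. SLC18A3 was most like CRYBA1, a crystallin (r = 1.00), and MIR217HG (r = 0.999). ISL1 was most like COPZ2 (r = 0.992) and FAM183A (r = 0.971), and ISL2 was most like AC002470 (r = 0.968) and the readthrough gene RPL17-C18orf32 (r = 0.961). These 4 were at 0 in replicates 2 and 3 of Day42 and present in replicate 1. SLC5A7 was most like RBM4B (r = 0.826) and ZNF134 (r = 0.813), whose highest values were in Day42 replicate 2, where RBM4B stood at 24.5 FPKM. On Day42, 10.2% of the 17448 genes above 12 counts in some library were so in replicate 1 alone, 15.7% in replicate 2 alone and 27.1% in replicates 1 and 2 without 3, while 41.3% were so in all 3. The patterns of ISL1 and ISL2, of SLC5A7 and of TH were thus each shared by other genes of the same libraries, but these shares are not matched for level. Of 4236 genes with at least 1818 counts in both replicates 1 and 2, 296 were at 0 in replicate 3 and 460 at or under 12 counts. TH lies at the lower end of that set, so this share is not matched for level either. On Day21 and Day0, 78.3% and 76.4% of the genes above 12 counts in some library of the day were so in all 3 libraries.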

How the data were processed

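RNA sequencing of 9 libraries was used. The deposited table holds raw counts per gene, per the file headers, and FPKM computed by the authors from a library total not given in the sources used here. Cutadapt 1.9, FastQC and GRCh38 are named in the submitters' processing notes. For the aligner, counter, strand setting and annotation, no entry is given in the sources used here. Columns were matched to samples by name, with 0 unmatched. The 9 genes and the gene lists were chosen with earlier results of these data known. Genes with enough counts (filterByExpr, 20156) were fitted by edgeR 4.0.16 (R 4.3.3; TMM, quasi-likelihood, 1 mean per day, 9 libraries together); a call needed an adjusted p (Benjamini-Hochberg) under 0.05 with a log2 change of at least 1 in size. Scripts were tested on simulated data. Counts of 4 occurred 7999 times, against 3658 of 3 and 3700 of 5, so the limit for 0 was set at 3 steps of 4. Folds against a day at 0 use the mean limit of that day. Correlations used log2 CPM with a prior count of 2. Besides the 9 genes, the text names the 2 genes most alike and up to 4 genes per list, those called with the largest change; other list genes were chosen after their values were seen. Alternatives were DESeq2 1.42.0, limma 3.58.1 on log2 FPKM or with voom, other filters and scaling, a fit on just the compared days, a replicate block and leaving out each library. Gene models came from GENCODE release 29 and promoters from RefSeq. Results of some list genes are not reported here.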

Additional observations from a re-analysis of the deposited data

How the results depend on the processing

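The number of the 9 genes called was recomputed under 18 alternatives per comparison, all planned. Under the filter of 1 FPKM in 3 libraries, which both limma fits on FPKM also use, 0 of the 9 genes were left to test, so these 3 give no value. From Day0 to Day21, where 0 were called, DESeq2 called 2, the fit on only the 2 days 3, and voom with sample quality weights 5; leaving out 1 library gave 0 to 2. From Day21 to Day42, where 2 were called, leaving out 1 library gave 0 to 4. From Day0 to Day42, where 0 were called, DESeq2 and voom each called 1, and leaving out 1 library gave 0 to 2. Same-numbered libraries of different days did not deviate together (9 correlations from −0.225 to 0.0266). Day0 replicate 3 and Day21 replicate 1, with differing numbers, reached 0.301. With so few libraries per day, these values cannot tell whether the numbers pair the libraries. With the replicate block, 0 genes were called from Day21 to Day42. Of 259 recomputed changes, 219 kept their direction and their side of the threshold, 22 newly passed, 6 no longer passed and 12 changed direction, of which ISL2 without Day42 replicate 1 was the 1 called. For Day42 against Day0, leaving out 1 library moved ISL1 from −6.87 to 0.46, ISL2 from −7.31 to 1.95 and SLC5A7 from −7.28 to 3.23; for Day42 against Day21 it moved ISL2 from −9.06 to 0.21 and SLC5A7 from −3.77 to 9.48. Other changed directions were −1.62 for ISL2 and −0.18 for TH with the replicate block, for Day42 against Day0 and Day21 against Day0, and, with voom for Day42 against Day0, −0.93 for ISL2 and −1.46 for SLC5A7. DESeq2 gave no adjusted p for ISL1 and ISL2. All 36 recomputed levels, from another scaling or without Day42 replicate 3, stayed within 1 SD. Leaving out 1 of 3 libraries cannot move a mean by 1 SD, so the levels without Day42 replicate 3 could not have failed. A level in FPKM was not set against CPM, since the scales differ. Over all genes, the Day0 to Day21 calls of 266 higher and 238 lower became 1389 and 1563 with DESeq2, 2550 and 2459 with only those days, 3734 and 3191 with voom, 76 and 33 with the block, and 1434 and 1460 without Day42 replicate 3. Depth limits every statement on PHOX2A, MNX1 and CHAT.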
